A study of Mus musculus with 4 samples.

Results

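The proteins of the mitochondrial ribosome were measured in gonadal white adipose tissue (WAT, the fat depot beside the male gonads) of FSP27-deficient and wild-type mice. Every probe set of the mouse expression array whose 1 annotated gene symbol starts with Mrpl or Mrps and a number was taken, which gave 74 genes on 127 of 22690 probe sets. By their names 47 of these genes belong to the large subunit (Mrpl) and 27 to the small subunit (Mrps). RefSeq lists 78 protein-coding genes named in this way, and Mrpl30, Mrpl53, Mrps10 and Mrps27 had no probe set of their own. The samples were 2 arrays labelled Fsp27 knockout and 2 labelled wild-type, all from male C57BL/6J mice of 3 months. The Fsp27 knockout animals lack FSP27 (gene symbol Cidec), a protein of the lipid droplet surface that is abundant in fat cells, and the wild-type animals carry no allele or treatment named in the labels. The tissue RNA of 5 mice of a genotype was combined into 1 pool and each pool was hybridised to 2 arrays. The p-values below therefore measure the spread between hybridisations of the same RNA and not between mice, and the number of arrays limits the precision.

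Mitochondria keep their own ribosome, which makes the few respiratory chain proteins that the mitochondrial genome encodes. Its proteins are all encoded in the nucleus, made in the cytosol and imported, so that a ribosome needs nuclear transcripts for its proteins and mitochondrial transcripts for its rRNA. The large subunit joins amino acids and holds the exit tunnel, and the small subunit binds the mRNA and reads its codons. Some of the proteins have counterparts in bacterial ribosomes and others exist only in mitochondria. Brown adipocytes are rich in mitochondria, and white adipocytes hold few.

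Between 62.2% and 66.0% of the probe sets had a signal of at least 100 on each array. Signal is the linear intensity that the array software gives for a probe set. Signals are given below for FSP27-deficient replicates 1 and 2, against wild-type replicates 1 and 2 in that order. Fold changes are FSP27-deficient minus wild-type on log2(signal + 16). Cidec, the targeted gene, had signals of 8564 and 8949 against 20491 and 18255 (log2 fold change -1.14, adjusted p = 5.7e-04), and the sources used here do not give which part of the gene was deleted. The 8523 genes whose signal averaged 100 or more entered limma, and adjusted p-values are over all of them with a threshold of 0.05. The tissue held its defining white adipocyte transcripts on every array, with summed signals of 6 such markers between 175053 and 231232. Of the 6, leptin (Lep) was lower, with 5051 and 3544 against 10972 and 10320 (log2 fold change -1.33, adjusted p = 8.8e-04), and the others did not pass the test. The summed signals of several other marker lists differed between the genotypes. For 7 brown adipocyte markers they were 20328 and 24735 against 1483 and 1088, with 5 of the 6 tested higher and the defining marker Ucp1 under a mean of 100. Cox8b made up most of the FSP27-deficient sums, with 13491 and 19539 against 451 and 374. Ppargc1a was the tested marker that did not pass (log2 fold change 0.26, adjusted p = 0.78). For 8 macrophage markers the summed signals were 6814 and 8087 against 18650 and 17215, with 6 lower and none under 100. Fibroblast and preadipocyte markers summed to 19831 and 21357 against 36303 and 35351 (3 of 7 tested lower), mesothelial markers to 2013 and 1570 against 4486 and 4534 (3 of 6 lower), and endothelial markers to 6804 and 8222 against 9196 and 10222 (1 of 8 lower). Of 8 skeletal muscle markers 7 were under 100, Acta1 being the exception, and their sums overlapped between the genotypes, as did those of 4 markers of the epididymis epithelium (366 and 269 against 202 and 727). In bulk tissue, fewer cells of a type and less RNA per cell cannot be told apart, and the part of these cell types in the results below was not tested.

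Transcripts for the mitochondrial ribosome were higher in FSP27-deficient WAT, in both subunits and by a modest amount. All 74 genes passed the filter on the mean signal. Of them 14 rose (18.9%) and 0 fell, where 5.78% of all tested genes rose and 6.51% fell. At an unadjusted p under 0.05, 42 of the 74 were higher and 0 lower, but the share of all tested genes at that level is not given here. The median log2 fold change of the 74 genes was 0.52, against -0.08 over all tested genes, and the middle of the list lay between 0.32 and 0.66 (lower and upper quartile). The estimate was above 0 for 69 of the 74 genes (93.2%), compared with 43.1% of all tested genes. The study used a ratio of 1.41 and consistency between duplicates, which its text does not define. Read as a mean signal ratio that reached 1.41 with the ratio of each duplicate pair in the same direction, 38 of the 74 genes were higher and 0 lower (14.4% and 20.6% of all tested genes). Read as both duplicate pairs past the ratio, 21 were higher and 0 lower, and the share of all tested genes on this reading is not given here. The arrays of the genotypes did not overlap for most of the 74 genes, being higher with FSP27 deficiency for 61 and lower for 1, Mrps15 (22.7% and 31.4% of all tested genes).

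**Figure D1:**
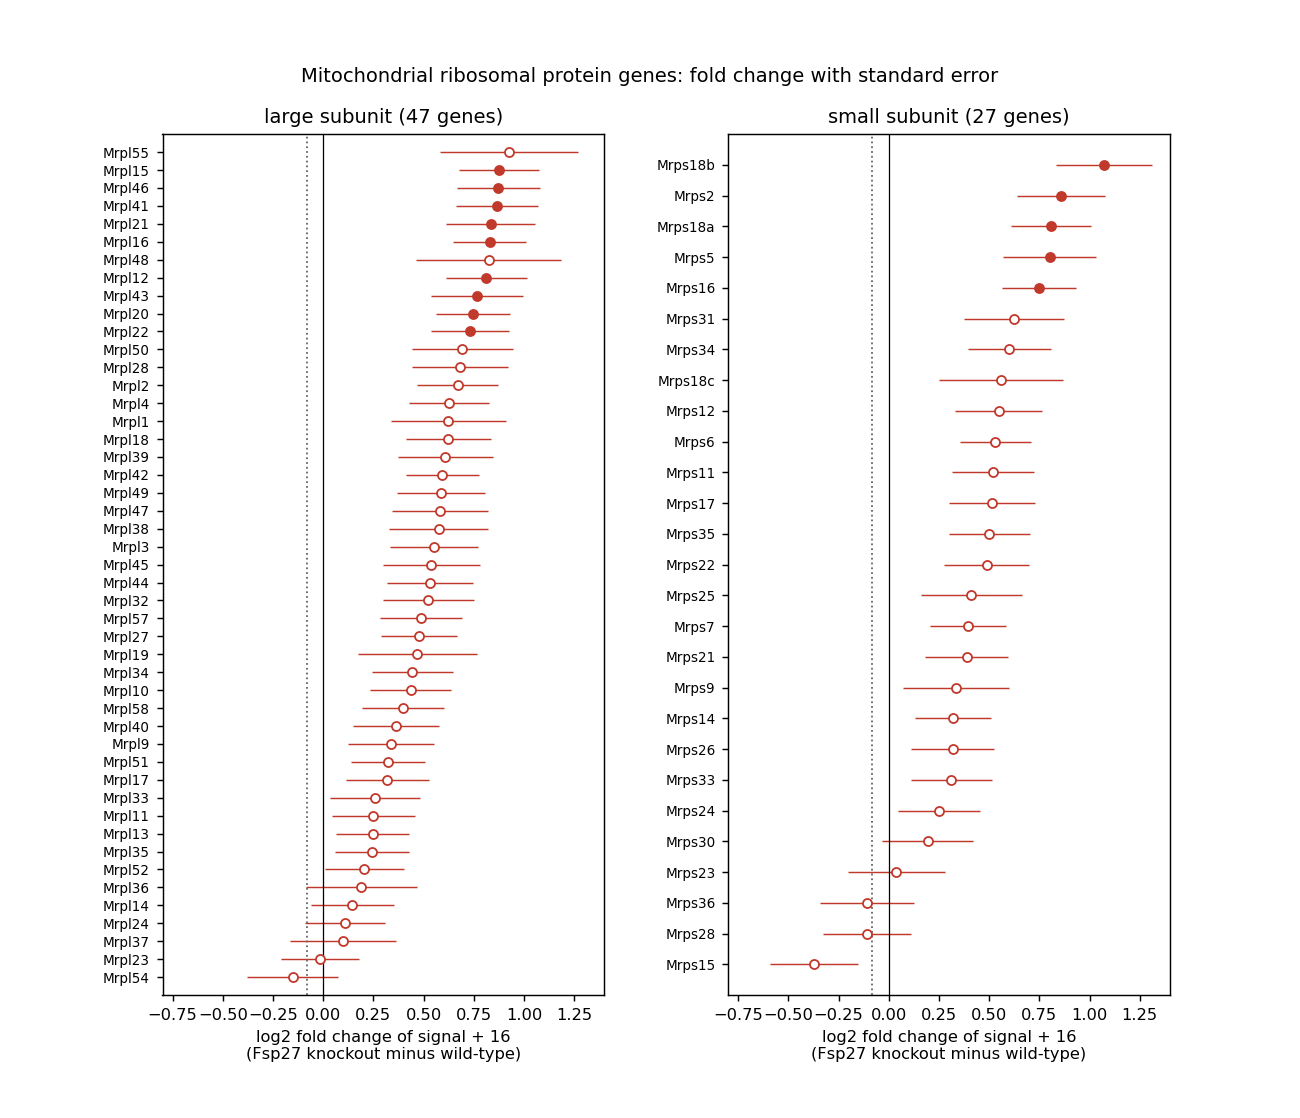
Log2 fold change (x axis, Fsp27 knockout minus wild-type, of signal + 16) of each of the 47 large and 27 small subunit genes (y axis) with its standard error from limma, n = 2 arrays of each genotype. Filled circles are the 14 genes past an adjusted p of 0.05, the dotted line is the median of all tested genes (-0.08), and 69 of the 74 points lie to the right of 0.

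The shift was seen on every pairing of the arrays, but its size depended on the wild-type duplicate. The median difference over the 74 genes was 0.52 for FSP27-deficient replicate 1 and 0.56 for replicate 2 against wild-type replicate 1. Against wild-type replicate 2 it was 0.38 and 0.43. Between 63 and 70 of the 74 genes were above 0 in these 4 pairings, where 43.4% to 46.5% of all tested genes were. The wild-type duplicates themselves differed, since replicate 1 had the lower value for 46 of the 74 genes, with a median difference of -0.16 against 0.02 over all tested genes. The FSP27-deficient duplicates differed by a median of -0.08, replicate 1 being lower for 45 genes. With a wild-type array left out, few or no calls remained among the 74 genes. Calls over all tested genes became fewer there as well, but a larger part of the calls was lost among the 74. With an FSP27-deficient array left out, the number of calls among the 74 changed less. Without wild-type replicate 1 or 2, 67 and 70 of the 74 estimates were above 0, and without FSP27-deficient replicate 1 or 2, 70 and 67. All 14 estimates of the genes that rose stayed above 0 in each case. The calls also rest on limma's trend between signal and variance, without which 0 of the 74 passed and 23 were higher at an unadjusted p under 0.05, with 1 call over all tested genes. The methods' t-test gave 0 calls after adjustment and 18 at an unadjusted p under 0.05, all higher. For both settings the share of all tested genes at that unadjusted level is not given here. The counts of 23 and 18 therefore do not show whether the 74 genes differed from the series.

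Of the 47 large subunit genes 9 rose (19.1%), and of the 27 small subunit genes 5 rose (18.5%). The median log2 fold change was 0.54 for the large and 0.49 for the small subunit, a difference of 0.05. This difference was 0.14 over every probe set, 0.081 after quantile normalization, 0.0030 over averaged probe sets and 0.099 without FSP27-deficient replicate 1. The fold criterion was met by 26 large and 12 small subunit genes. The arrays of the genotypes stood apart upward for 40 of 47 and 21 of 27. Relative to the median of all tested genes on the same array, the large subunit's median log2 level was 1.50 and 1.61 against 0.75 and 1.02. The small subunit's was 1.39 and 1.38 against 0.80 and 0.89. Each subunit was thus higher on both FSP27-deficient arrays. The difference between the subunit medians on an array was 0.11 and 0.23 with FSP27 deficiency and -0.05 and 0.13 in wild-type, so the genotypes overlapped. Mrps18a and Mrps30 carry small subunit names but are known to sit in the large subunit, and placing them there gave 10 of 49 and 4 of 25 with both medians as before.

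**Figure D2:**
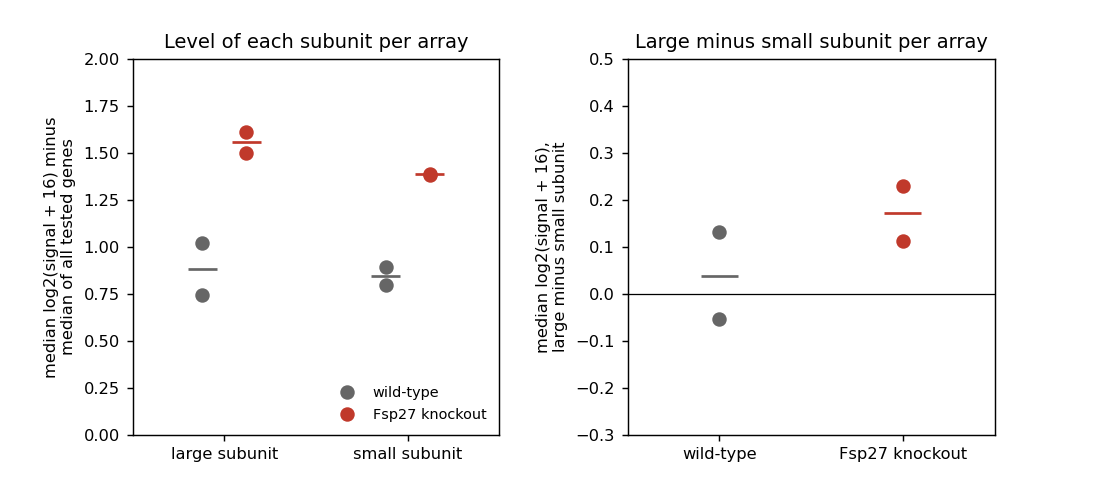
Left, median log2(signal + 16) of the large and small subunit genes on each array minus the median of all tested genes on that array (y axis). Right, large minus small subunit median on each array (y axis). Points are the 2 arrays of each genotype and bars their mean. Both subunits are higher on the Fsp27 knockout arrays, between 1.38 and 1.61 against 0.75 to 1.02, whereas the large minus small difference of the genotypes overlaps.

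The 9 large subunit genes that rose encode proteins from different places in the subunit. Mrpl16, a counterpart of bacterial L16 near the peptidyl transferase centre, had signals of 2735 and 2632 against 1427 and 1582 (log2 fold change 0.83 ± 0.18 SE, adjusted p = 0.011). It had the lowest adjusted p of the 74 genes. Mrpl22, whose bacterial counterpart L22 lines the exit tunnel, had 1839 and 1751 against 998 and 1156 (0.73 ± 0.19, adjusted p = 0.027). In both genes the duplicates of a genotype lay close together and well apart from the other genotype. Mrpl15, the counterpart of L15, had 1445 and 1492 against 837 and 751 (0.88 ± 0.20, adjusted p = 0.013). Mrpl20, the counterpart of L20, an early rRNA binder in bacteria, had 2705 and 3113 against 1634 and 1822 (0.74 ± 0.18, adjusted p = 0.020). Mrpl21, the counterpart of L21, had 874 and 834 against 428 and 520 (0.83 ± 0.22, adjusted p = 0.028). None of these 5 overlapped between the genotypes. Among the genes for proteins found only in mitochondria 3 rose. Mrpl46 had 1134 and 1199 against 663 and 598 (0.87 ± 0.21, adjusted p = 0.016). Mrpl41 had 2922 and 3216 against 1416 and 1984 (0.87 ± 0.20, adjusted p = 0.015). Mrpl43 had 1030 and 1292 against 581 and 775 (0.77 ± 0.23, adjusted p = 0.047). Mrpl43 was the call nearest to the threshold and was lost without the filter on low signals or with each array centred on its median. Averaging the probe sets of a gene ended the calls of Mrpl41 (0.30, adjusted p = 0.43), Mrpl15 (0.55, adjusted p = 0.26) and Mrpl21 (0.66, adjusted p = 0.12).

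Mrpl12 and Mrpl10 form the stalk of the large subunit, which recruits the translation factors. Mrpl12, the counterpart of bacterial L7/L12, had 2873 and 4051 against 1940 and 1933 (0.81 ± 0.20, adjusted p = 0.020). Its FSP27-deficient duplicates were far apart, and the lower of them still exceeded both wild-type values. Mrpl10, the protein that anchors it, had 2102 and 1634 against 1446 and 1290 (0.44 ± 0.20, adjusted p = 0.20), so its arrays did not overlap but the test was not passed.

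Among the 5 small subunit genes that rose, Mrps18b had the largest estimate of all 74 genes. It had 1998 and 2176 against 762 and 1269 (1.07 ± 0.24, adjusted p = 0.012), and the difference rested partly on the low wild-type replicate 1 (0.71 without it). Mrps2, the counterpart of bacterial S2, had 1157 and 1112 against 545 and 702 (0.86 ± 0.22, adjusted p = 0.022). Both genes had the higher wild-type value on replicate 2. Mrps5, the counterpart of S5, which lies at the path of the incoming mRNA, had 666 and 838 against 412 and 432 (0.80 ± 0.23, adjusted p = 0.041), while its other probe set gave 0.14 (adjusted p = 0.85). The call was lost over averaged probe sets (0.47, adjusted p = 0.22) and without the filter on low signals (adjusted p = 0.075). Mrps16, the counterpart of S16, had 2299 and 2507 against 1462 and 1385 (0.75 ± 0.18, adjusted p = 0.019). In these 2 genes the wild-type duplicates were close to each other. Mrps18a had 1404 and 1588 against 859 and 836 (0.81 ± 0.20, adjusted p = 0.020).

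**Figure D3:**
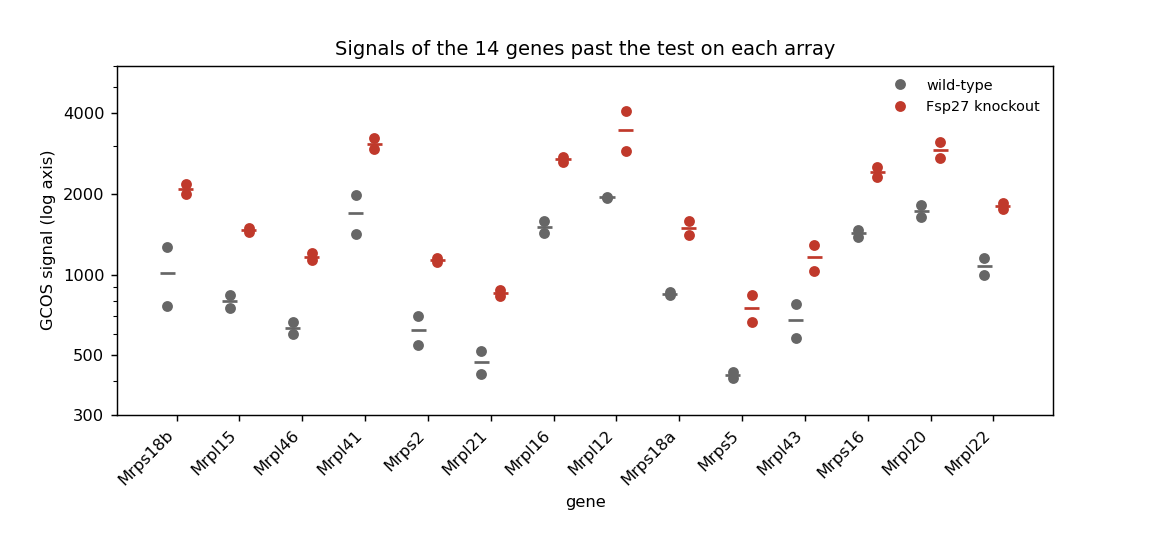
Array signal (y axis, log axis) of the 14 genes past the test (x axis) on the 2 Fsp27 knockout and 2 wild-type arrays, with points for arrays and bars for their mean. In each gene both Fsp27 knockout points lie above both wild-type points, and the heights of different genes are not comparable because each has its own probes.

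Mrps18a, Mrps18b and Mrps18c are paralogs of bacterial S18 that sit at different places in the ribosome. Mrps18a and Mrps18b rose, as given above. Mrps18c had 1579 and 1566 against 696 and 1616 (0.56 ± 0.31, adjusted p = 0.29). The genotypes therefore overlapped, and the estimate turned to -0.04 without wild-type replicate 1 and was 1.16 without wild-type replicate 2. Mrps30, the other large subunit protein with a small subunit name, had 660 and 559 against 535 and 525 (0.19 ± 0.23, adjusted p = 0.66).

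By evolutionary origin, 11 of the 45 genes for proteins with a bacterial counterpart rose. Of the 29 genes for proteins found only in mitochondria 3 rose, and the medians were 0.52 and 0.50. In the small subunit 5 of 17 genes of the first kind and 0 of 10 of the second kind rose, with medians of 0.52 and 0.36. In the large subunit 6 of 28 and 3 of 19 rose, with medians of 0.50 and 0.58. The share that rose was higher for the first kind in both subunits, and over all tested genes it was 5.78%. The difference between the kinds was not tested.

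Estimates of the same size did not always pass. Mrpl55, a mitochondria-specific large subunit protein, had 1630 and 1665 against 524 and 1406 (0.92 ± 0.34, adjusted p = 0.11). Mrpl48 had 1012 and 2705 against 768 and 1121 (0.83 ± 0.36, adjusted p = 0.17). In each a pair of duplicates was far apart, the wild-type pair in Mrpl55 and the FSP27-deficient pair in Mrpl48, and in Mrpl48 the genotypes overlapped. The genes just outside the threshold were Mrpl2, the counterpart of L2 at the peptidyl transferase centre, with 1779 and 1983 against 1040 and 1329 (0.67 ± 0.20, adjusted p = 0.050), and Mrpl42 with 4435 and 3609 against 2547 and 2749 (0.59 ± 0.18, adjusted p = 0.051). Mrpl48 and Mrpl2 were named after their values were seen. Over the 74 genes the standard deviation of the log2 difference between duplicates was 0.27 with FSP27 deficiency and 0.36 in wild-type, where all tested genes had 0.64 and 0.46.

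The other genes that did not pass fall into groups by their distance from the criteria. Beside the 14 genes that rose, 24 met the fold criterion, 17 of the large and 7 of the small subunit, with estimates from 0.50 to 0.92 and adjusted p from 0.050 to 0.19, and their arrays overlapped in 1, Mrpl48. They include Mrpl45, which ties the ribosome to the inner membrane, with 1444 and 1257 against 731 and 1162 (0.54 ± 0.24, adjusted p = 0.18). Mrps12, the counterpart of S12 at the decoding site, had 803 and 862 against 589 and 542 (0.55 ± 0.21, adjusted p = 0.13). Mrps35 had 1102 and 1092 against 760 and 784 (0.50 ± 0.20, adjusted p = 0.14), with both pairs of duplicates tight. A further 25 genes stayed under the fold with arrays that did not overlap, 15 of the large and 10 of the small subunit, with adjusted p from 0.13 to 0.72. Mrps15 was lower among them and the rest higher. They include Mrpl58, a peptidyl-tRNA hydrolase that became part of the ribosome, with 1083 and 1307 against 896 and 905 (0.40 ± 0.20, adjusted p = 0.26), and Mrps7, the counterpart of S7, with 1980 and 1778 against 1509 and 1347 (0.39 ± 0.19, adjusted p = 0.22). In the last 11 genes, 6 large and 5 small, the arrays of the genotypes overlapped. Mrpl36, the counterpart of the small protein L36, had 526 and 940 against 677 and 559 (0.19 ± 0.28, adjusted p = 0.73). Mrpl45, Mrps12, Mrps35, Mrpl58, Mrps7 and Mrpl36 were named after their values were seen. Across the 74 genes the log2 fold change had a correlation of 0.10 with the mean log2 signal (Pearson, over genes that share the same arrays), given as a description.

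A few genes stood outside the shift. Mrps15, the counterpart of S15, which binds the small subunit rRNA in bacteria, had 666 and 808 against 872 and 1045 (-0.37 ± 0.22, adjusted p = 0.32). It was the gene with the lowest estimate, and its other probe set gave 0.01, with 533 and 723 against 771 and 489. Mrpl54 had 550 and 566 against 690 and 560 (-0.15 ± 0.23, adjusted p = 0.74). Mrps28 had 1340 and 1125 against 1554 and 1132 (-0.11 ± 0.22, adjusted p = 0.81). In both the genotypes overlapped. Mrps36, since regarded as a component of the 2-oxoglutarate dehydrogenase complex, had 723 and 686 against 904 and 639 (-0.11 ± 0.23, adjusted p = 0.83). Mrpl23, whose bacterial counterpart L23 lies at the end of the exit tunnel, had 1406 and 1525 against 1353 and 1618 (-0.02 ± 0.20, adjusted p = 0.98). Mrpl37 had 675 and 710 against 490 and 848 (0.10 ± 0.27, adjusted p = 0.87). None of these 6 passed the test in either direction.

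Of the 74 genes 33 had several probe sets, and the brightest by mean signal was used. Of the 127 probe sets 111 had a mean signal of at least 100, and 99 of these were above 0 and 12 below. Adjusted over the 14360 probe sets tested on their own, 15 of the 111 were higher and 0 lower, where 4.81% of all such probe sets were higher. These were in 14 genes, with Mrps2 represented by both of its probe sets (0.86 and 1.27). Mrpl3 entered through its dimmer probe set, with 611 and 578 against 290 and 238 (1.13, adjusted p = 0.014), while its brightest gave 0.55 (adjusted p = 0.16). Mrpl43 did not pass there. In 27 genes at least a pair of probe sets reached a mean of 100, and in 20 of them all such sets lay on the same side of 0. The widest disagreement was in Mrpl1, where the brightest probe set had 346 and 386 against 207 and 258 (0.62) and another had 96.2 and 26.7 against 249 and 144 (-1.57). Mrpl17 had 0.32 on the brightest and -0.72 on a probe set of mean signal 125. In Mrpl15 the 5 probe sets that reached 100 gave between 0.37 and 1.16, and the brightest of them is of a type whose probes may match other sequences as well. In Mrpl41 the 2 brighter probe sets gave 0.87 and 0.57 and the dimmest, at a mean signal of 13.5, gave -0.54. The sets under 100 were above 0 in 8 cases and below in 8. In all, 12 genes had probe sets of opposite sign at least 0.5 apart, namely Mrpl1, Mrpl15, Mrpl17 and Mrpl41 along with Mrpl11, Mrpl19, Mrpl28, Mrpl42, Mrpl51, Mrpl52, Mrps9 and Mrps25.

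**Figure D4:**
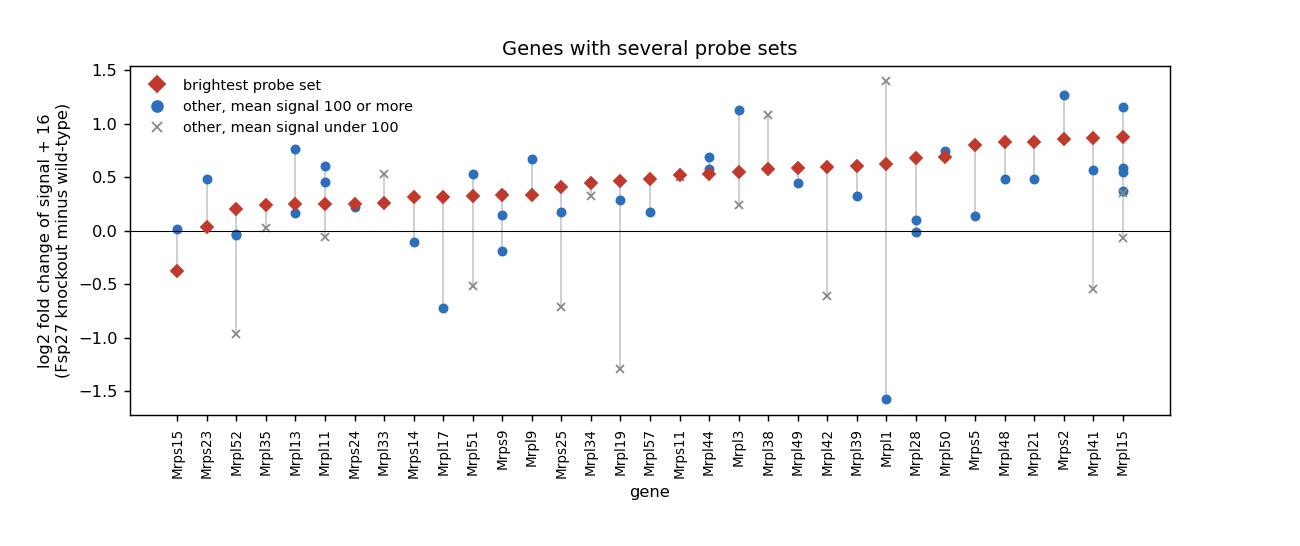
Log2 fold change (y axis, Fsp27 knockout minus wild-type) of every probe set of the 33 genes that have several (x axis, ordered by the brightest probe set). Diamonds are the brightest probe set of a gene, circles other sets with a mean signal of at least 100 and crosses sets under 100. Circles lie below 0 in a few genes, the lowest in Mrpl1 at -1.57, and the crosses are spread to both sides of 0.

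The mitochondrial ribosome was set beside a respiratory complex that uses some of its products and the ribosome of the cytosol, by counts and medians alone. Of 33 genes for subunits of complex I, the first enzyme of the respiratory chain, 27 rose (81.8%) and 0 fell, with a median of 0.85. Only 6 of the 74 mitochondrial ribosomal genes reached that median. Of 48 genes of the cytosolic ribosome 44 were tested, and 1 rose (2.27%, below the 5.78% of all tested genes) and 3 fell, where 6.51% of all tested genes fell, with a median of -0.25. The arrays' medians of the cytosolic list were 12.7 and 13.1 with FSP27 deficiency and 13.1 and 13.1 in wild-type on the log2 scale, so that the genotypes overlapped. The median of the mitochondrial list was 10.2 and 10.3 against 9.66 and 9.86.

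**Figure D5:**
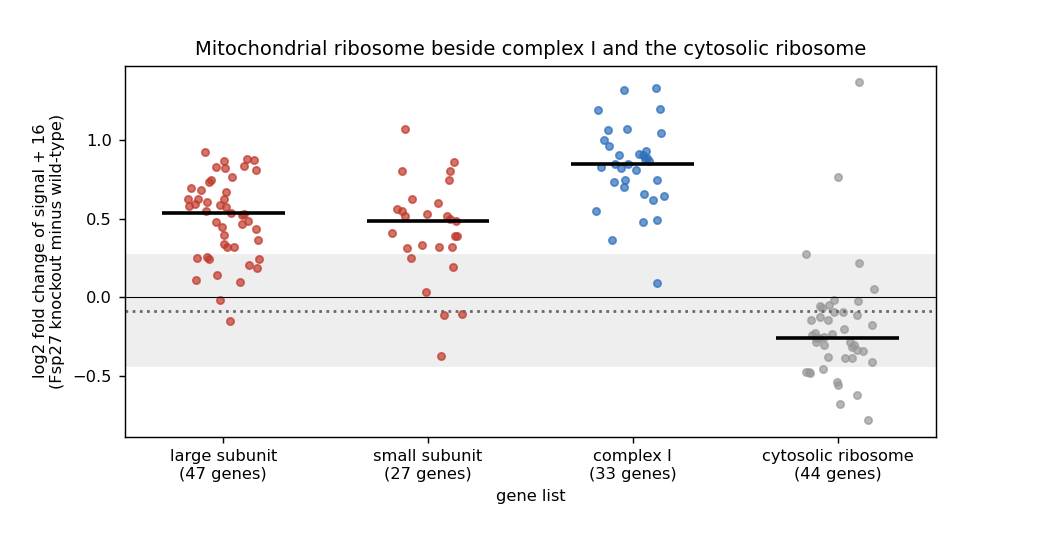
Log2 fold change (y axis, Fsp27 knockout minus wild-type) of each tested gene in 4 lists (x axis). Black bars are medians (0.54, 0.49, 0.85 and -0.25 from left to right), the dotted line is the median of all tested genes and the grey band their lower to upper quartile. Most points of both mitochondrial ribosome subunits lie above the band and most of those of the cytosolic ribosome lie in it.

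Genes that serve the mitochondrial ribosome are given by list, beside the 5.78% of all tested genes that rose and the 6.51% that fell. Of 4 genes for ribosomal proteins with other names 1 rose, Ptcd3 of the small subunit, with 1902 and 1404 against 850 and 829 (0.95 ± 0.21, adjusted p = 0.012). Dap3 had 0.36. Of 6 translation factors 2 rose. Gfm1, the elongation factor that moves the ribosome along, had 1906 and 1786 against 857 and 833 (1.11 ± 0.19, adjusted p = 0.0029), and Tufm, which delivers the aminoacyl-tRNAs, had 774 and 551 against 234 and 402 (1.05 ± 0.29, adjusted p = 0.036). The Tufm estimate ranged from 0.68 to 1.42 with an array left out, and its call was lost without FSP27-deficient replicate 1 or wild-type replicate 1. Of 16 ribosome assembly factors 0 passed in either direction, with a median of 0.21 and a range from -0.89 to 0.88. Of 9 mitochondrial aminoacyl-tRNA synthetases 1 rose, Fars2, which charges phenylalanine tRNA, with 950 and 1094 against 437 and 554 (1.03 ± 0.23, adjusted p = 0.011). Of 9 genes for mitochondrial DNA expression 2 rose, and 0 fell. These were Lrpprc, which stabilises mitochondrial mRNAs, with 812 and 659 against 350 and 299 (1.14 ± 0.24, adjusted p = 0.0087), and Polrmt, the mitochondrial RNA polymerase, with 916 and 641 against 442 and 414 (0.82 ± 0.24, adjusted p = 0.047). Of 9 regulators 1 rose, the coactivator Ppargc1b, with 637 and 586 against 207 and 138 (1.76 ± 0.28, adjusted p = 0.0020). Of the other regulators, Pprc1 had 207 and 165 against 379 and 314 (-0.85, adjusted p = 0.10), Yy1 had 709 and 983 against 1378 and 1132 (-0.57, adjusted p = 0.13) and Myc had 121 and 10.3 against 189 and 135 (-1.55, adjusted p = 0.31). These 3 met the fold criterion downward without passing the test. Esrra met it upward without passing, with 610 and 847 against 449 and 401 (0.74, adjusted p = 0.070). Ppargc1a had 209 and 161 against 205 and 110 (0.26, adjusted p = 0.78). Pprc1, Yy1, Myc, Esrra and Ppargc1a were named after their values were seen. Of the 9 regulators 6 had estimates above 0 and 3 below. The arrays of the 7 genes that rose did not overlap between the genotypes.

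Promoters of these genes were read from RefSeq sequences (GRCm38.p6, 250 bases before to 50 after the start site), where 65 of the 74 genes had an entry. Letters known as binding motifs of factors that act on nuclear genes for mitochondria were searched on both strands: GCGCATGC for NRF1, CCGGAAGT for ETS factors such as GABP, AAGATGGC for YY1 and TCAAGGTCA for the oestrogen-related receptors. The NRF1 letters on 1 strand can overlap those on the other, and a gene was counted once. At least 1 of the first 3 motifs was present in 28 of the 65 promoters (43.1%), compared with 19.4% of the 6899 tested genes that had an entry and 9.91% of all genes listed. The NRF1 letters were in 12.3%, the ETS letters in 16.9% and the YY1 letters in 16.9% of the 65, against 6.17%, 9.28% and 5.45% of the tested genes. The receptor motif was in 0 of the 65 and in 0.348% of the tested genes. Of the genes that rose 4 of 13 with an entry held one of the first 3 motifs (30.8%), and of those that did not pass 24 of 52 did (46.2%). These shares are descriptions of letters and were not tested.

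The promoters of the 4 genes that rose and held a motif are shown with that of Mrps15, the gene with the lowest estimate, to show where in the window the letters lie. Each runs 5′ to 3′ from 250 bases before to 30 bases after the start site, with the motif in capitals. In Mrps18b the NRF1 letters begin 223 bases before the start site (chr17:35916411-35916690, minus strand), and a further match that begins 28 bases after the start site runs past the stretch shown. In Mrpl22 they begin 33 bases before it (chr11:58171414-58171693, plus strand). In Mrpl43 the ETS letters begin 12 bases before it (chr19:45006413-45006692, minus strand). In Mrps18a the YY1 letters begin 11 bases after it (chr17:46110754-46111033, plus strand). The Mrps15 promoter (chr4:126046678-126046957, plus strand) holds none of the letters searched in this window.
Mrps18b: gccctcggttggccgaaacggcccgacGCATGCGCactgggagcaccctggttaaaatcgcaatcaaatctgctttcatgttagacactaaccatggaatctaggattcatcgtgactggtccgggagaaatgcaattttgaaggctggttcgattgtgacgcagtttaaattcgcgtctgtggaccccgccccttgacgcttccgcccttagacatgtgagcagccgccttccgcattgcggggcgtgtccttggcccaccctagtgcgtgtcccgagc
Mrpl22: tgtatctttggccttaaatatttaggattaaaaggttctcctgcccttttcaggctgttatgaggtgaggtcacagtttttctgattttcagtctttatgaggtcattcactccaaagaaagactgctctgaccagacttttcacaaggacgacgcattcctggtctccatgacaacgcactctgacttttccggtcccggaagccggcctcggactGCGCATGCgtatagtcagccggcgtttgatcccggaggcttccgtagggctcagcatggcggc
Mrpl43: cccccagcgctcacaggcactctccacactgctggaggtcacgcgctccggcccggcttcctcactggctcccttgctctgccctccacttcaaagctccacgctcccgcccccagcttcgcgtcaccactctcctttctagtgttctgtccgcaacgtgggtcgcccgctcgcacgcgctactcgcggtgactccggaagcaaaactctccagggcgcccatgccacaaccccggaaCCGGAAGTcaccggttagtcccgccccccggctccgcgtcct
Mrps18a: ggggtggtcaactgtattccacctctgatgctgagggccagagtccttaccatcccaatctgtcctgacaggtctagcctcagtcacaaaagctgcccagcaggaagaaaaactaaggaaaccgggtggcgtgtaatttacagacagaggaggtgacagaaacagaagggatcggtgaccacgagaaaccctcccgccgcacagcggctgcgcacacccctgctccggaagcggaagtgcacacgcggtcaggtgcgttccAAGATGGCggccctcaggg
Mrps15: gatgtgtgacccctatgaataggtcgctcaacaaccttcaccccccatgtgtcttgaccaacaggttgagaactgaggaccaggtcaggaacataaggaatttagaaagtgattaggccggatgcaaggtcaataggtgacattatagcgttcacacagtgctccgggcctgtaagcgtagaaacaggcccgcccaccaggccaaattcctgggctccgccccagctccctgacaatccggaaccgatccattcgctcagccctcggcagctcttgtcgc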

How the data were processed

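RNA was extracted with TRIzol and hybridised as biotinylated cRNA, 1 pool of 5 mice (45 micrograms) for each genotype on 2 arrays. The authors made the deposited values with GCOS, and they are linear intensities (signals). Neither the version of GCOS nor the level to which it scaled each array is given in the sources used here. Probe sets were named from the platform's annotation, and 691 with several symbols and 1606 without were left out, 3 of them shared between a mitochondrial ribosomal gene and another gene. Of 12394 genes with a symbol, each represented by its brightest probe set over all arrays, 8523 had a mean signal of at least 100 and were tested on log2(signal + 16) with limma 3.58.1 (lmFit, eBayes with trend; R 4.3.3), adjusted by Benjamini-Hochberg. Residual degrees of freedom were 2, and 12.1 after moderation. The steps were tested on simulated data.

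The genes described, the lists and the tests were chosen with earlier results of these data known. Named genes were those past the threshold, the 3 lowest and 3 highest estimates of each subunit, the stalk and S18 proteins, Mrps18a and Mrps30, genes whose probe sets differ in sign by at least 0.5, and up to 3 called genes of each related list. As alternatives the pseudocount was 1 or 64, the filter was dropped or set to 200, arrays were quantile normalized or centred on their median, all probe sets of a gene were tested or averaged, the trend was dropped, the methods' t-test was run, the replicate number was a block, both duplicates had to pass the fold, Mrps18a and Mrps30 were moved, and each array was left out. The methods give the Student's t-test in general and do not tie it to the arrays. The fold criterion without each array was added after the data were seen.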

Additional observations from a re-analysis of the deposited data

How the results depend on the processing

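The 74 genes gave 11 to 16 calls under both pseudocounts, both filters, quantile normalization, centring, every probe set and averaged probe sets. In all of them 0 were lower. For most settings in this section the share of all tested genes that passed is not given here. Member counts alone therefore do not show whether the 74 genes differed from the series. Without the trend and by the methods' t-test there were 0 calls in either subunit, where all tested genes had 1 and 0. At an unadjusted p under 0.05 there were 23 and 18 of the 74 genes. With an array left out there were 0 to 16 calls (0 to 10 large, 0 to 6 small), and the lone array is assumed to vary like the other genotype's. The fold criterion then gave 29 to 40 genes higher and 0 to 1 lower, and 21 higher where both duplicates had to pass the fold. The replicate number as a block gave 24 calls, 17 of them large subunit genes. Across all tested genes the duplicate differences of the 2 genotypes had a correlation of 0.07. With 2 pairs of arrays this cannot show whether same-numbered arrays share a step. Among the 74 genes replicate 1 was lower for 45 with FSP27 deficiency and for 46 in wild-type (medians -0.08 and -0.16). All 14 calls held under the block. The small subunit median was 0.54 after quantile normalization, 0.56 after centring and 0.39 over every probe set, and 0.39 to 0.51 with an array left out. The median of all tested genes was -0.01 after quantile normalization and -0.01 after centring.

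Single genes that changed sign had not passed the test. Mrpl23 was 0.028 after quantile normalization and 0.061 after centring. Over averaged probe sets Mrpl17 was -0.20, Mrpl19 -0.18, Mrpl42 -0.0087, Mrpl52 -0.21 and Mrps25 -0.042. With an array left out Mrpl23 ranged from -0.14 to 0.11, Mrpl37 from -0.29 to 0.49, Mrps28 from -0.34 to 0.12, Mrps36 from -0.35 to 0.14 and Mrps18c from -0.039 to 1.16. Among the related genes, Polrmt (adjusted p = 0.091) and Tufm (0.098) lost the call without the filter, and Gfm1 (0.068) and Polrmt (0.14) over averaged probe sets. With an array left out Ptcd3 kept its call in 1 of 4 cases, Polrmt in 1, Tufm in 2, Fars2 and Lrpprc in 3, and Gfm1 and Ppargc1b in 4. Of the single values that kept their sign 492 kept their side of the threshold, 98 lost the call and 9 gained it. The cause was not tested.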
